A study of Oryza sativa with 6 samples.

Results

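Leaf carotenoid synthesis was followed here through 10 rice genes, which take the pathway from its first committed step to the xanthophylls: the phytoene synthases PSY1 and PSY2, the desaturases PDS and ZDS, the isomerase CRTISO, the lycopene cyclases LCYB and LCYE, the hydroxylases BCH and CYP97A4, and the epoxidase ZEP. They were chosen by locus ID from the 19696 rows of the deposited expression table, with earlier results of the same comparison of genotypes known. All differences between the genotypes are therefore a description of these genes and support no claim about the pathway. The data comprised 3 RNA sequencing libraries of the DGP1 overexpressor DGP1-OE1, which is 1 line, and 3 libraries of its wild type ZH11, a japonica rice variety. All were from leaves of seedlings 3 weeks old grown on 1/2MS, a defined culture medium for plants, and all carry the unexplained label Ck. The study asked how DGP1 bears on metabolism. The sources used here give neither the promoter that drives DGP1 nor whether a library came from 1 plant or a pool, so p-values reflect only the scatter of these libraries, and that scatter may be technical.

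Carotenoids are plastid pigments that collect light and protect the photosynthetic apparatus in leaves, and some are cut to make the hormone abscisic acid. Phytoene synthase joins geranylgeranyl units to phytoene, and desaturases and isomerases then turn this into red lycopene. There the pathway forks. The beta-cyclase LCYB closes both ends of lycopene into beta rings and leads to beta-carotene, zeaxanthin and violaxanthin. The epsilon-cyclase LCYE closes 1 end into an epsilon ring, and together with LCYB it leads to alpha-carotene and lutein, the main xanthophyll of leaves. In maize, natural variation at the epsilon-cyclase gene is known to shift kernel carotenoids between these branches.

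The epsilon-cyclase transcript was lower in DGP1-OE1 leaves than in ZH11 leaves, while the mean of the beta-cyclase transcript lay within the spread of the wild type, and both cyclases had similar levels in DGP1-OE1. LCYE averaged 20.3 ± 4.82 FPKM (SD, n = 3) in DGP1-OE1 and 51.8 ± 8.83 FPKM (SD, n = 3) in ZH11, and LCYB averaged 18.4 ± 3.48 FPKM in DGP1-OE1 and 17.5 ± 2.82 FPKM in ZH11. FPKM is scaled to the length of the transcript and to the size of the library, so levels of different genes may be compared. PSY1 and BCH also stood lower in every DGP1-OE1 library than in any ZH11 library, and ZEP stood higher in every one. PSY2, PDS, ZDS, CRTISO, LCYB and CYP97A4 had overlapping groups.

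All 10 genes passed the filter of at least 1 FPKM in at least 3 libraries, and 1 of them, LCYE, was called, as lower in DGP1-OE1 (limma over 18270 tested rows, two-sided, Benjamini-Hochberg adjusted p under 0.05). Over all tested rows 0.356% were called, 0.159% as higher and 0.197% as lower, and nothing is read from the members' count, since they were chosen with this contrast known. The count of non-overlapping groups was 4 of the 10 genes, 1 higher and 3 lower, where 13.9% of all tested rows had non-overlapping groups, 6.72% higher and 7.19% lower. At an unadjusted p under 0.05 stood 2 of the 10 genes, PSY1 and LCYE, beside 8.8% of all tested rows. The median log2 difference was 0.11 over the 10 genes, 6 of them positive and 4 negative, and -0.0096 over all tested rows. Summed FPKM of the 10 genes was 594, 716 and 616 in DGP1-OE1 and 611, 651 and 633 in ZH11, with overlapping groups.

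**Figure D1:**
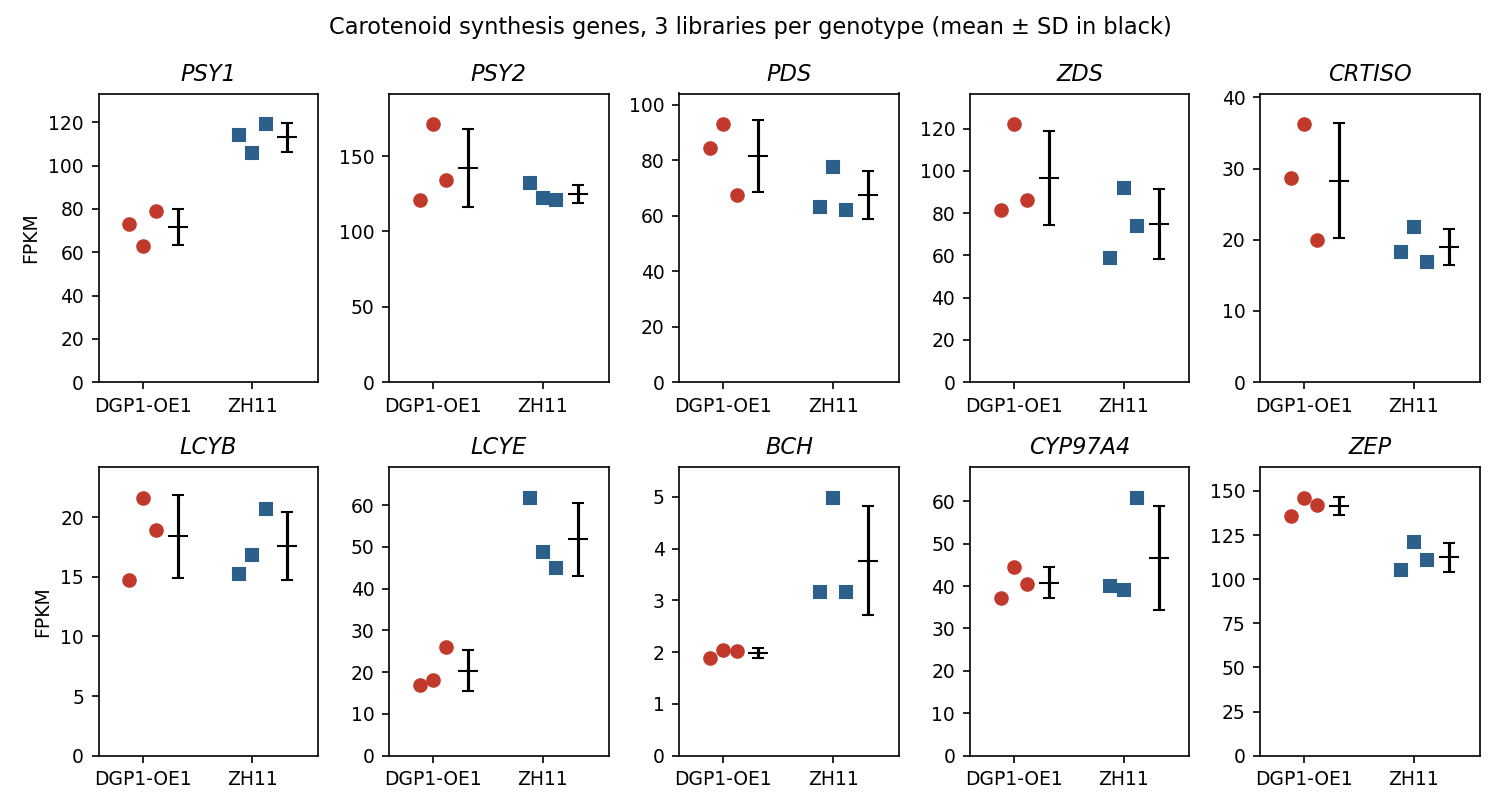
FPKM of each gene (vertical axis, from 0) in the 3 DGP1-OE1 libraries (circles) and the 3 ZH11 libraries (squares), with the mean and SD in black and the libraries of a group in the order of their replicate numbers. The groups do not overlap for PSY1, LCYE, BCH and ZEP, and they overlap for the other 6 genes.

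The libraries differed little in total, with listed FPKM summing to between 686327 and 752617 and medians from 6.69 to 8.29 FPKM. DGP1-OE1 replicate 3 had the most rows listed at 0, 637, against 56 to 378 in the other 5 libraries. Sequencing depth could not be derived, since only FPKM was given and no step of 1 read was visible among low values. IDs come without names in the table, so neither the level of DGP1 itself nor any leaf marker gene was checked. In whole leaves, fewer cells of a type and less RNA per cell cannot be told apart.

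The level of LCYE (Os01g0581300, chromosome 1) was 16.9, 18.2 and 25.9 FPKM in DGP1-OE1 replicates 1, 2 and 3, against 61.7, 48.8 and 44.9 FPKM in ZH11 replicates 1, 2 and 3. The highest DGP1-OE1 library lay below the lowest ZH11 library. The mean in DGP1-OE1 was 0.393 times that in ZH11, and the log2(FPKM + 1) difference, DGP1-OE1 minus ZH11, was -1.32 with an SE of 0.233 and a 95% interval of -1.83 to -0.805. The adjusted p was 0.0431 (limma). By the size of the difference, 1.51% of all tested rows differed more. The call lay close to the threshold. It was lost without DGP1-OE1 replicate 1 or 2 (limma adjusted p = 0.239 and 0.0754) and without ZH11 replicate 1, 2 or 3 (0.29, 0.0821 and 0.111), as well as with a pseudocount of 0.1 (0.0669), median-of-ratios scaling (0.0863), quantile normalization (0.0663) or no intensity trend (0.167). The difference itself stayed between -1.5 and -1.19 in all 15 other settings. The replicate number as a block gave a limma adjusted p of 0.0143, although the labels do not pair equal numbers. With the block the SE of LCYE was 0.227, close to 0.233. Calls over the whole table rose from 29 higher and 36 lower genes to 130 and 139.

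**Figure D2:**
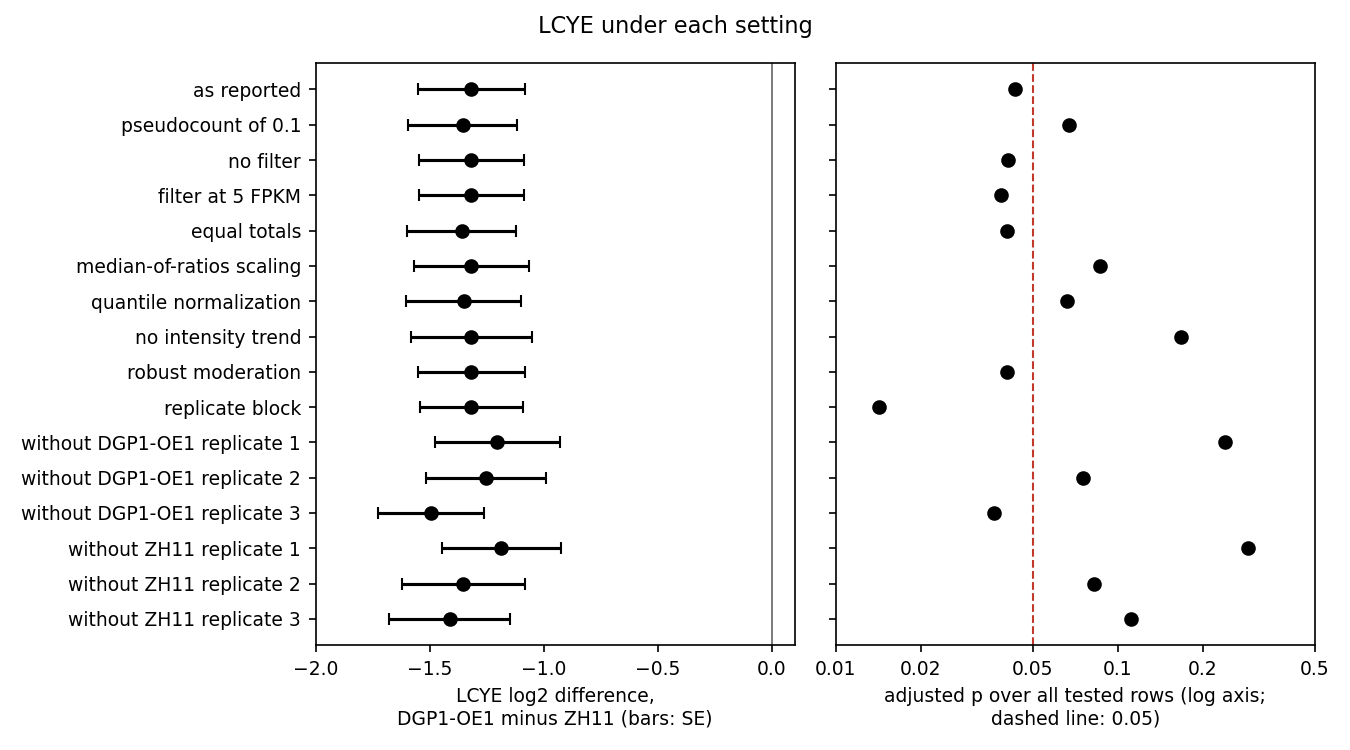
The LCYE difference between DGP1-OE1 and ZH11 on the log2 scale with its SE (left) and its adjusted p over all tested rows on a log axis (right), for the values as reported and for each of 15 other settings. The difference stays between -1.5 and -1.19, while the adjusted p falls on either side of the dashed line at 0.05.

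LCYB (Os02g0190600, chromosome 2) had 14.7, 21.6 and 18.9 FPKM in DGP1-OE1 replicates 1 to 3 and 15.2, 16.8 and 20.7 FPKM in ZH11 replicates 1 to 3. The DGP1-OE1 libraries held both the lowest and the highest of the 6 values. The log2 difference was 0.06 (SE 0.241, 95% interval -0.473 to 0.589, limma adjusted p = 0.973), and this interval does not exclude a change of either sign. Rice plants that lack this cyclase are known to bleach in the light and to sprout on the panicle.

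Side by side, the cyclases gave LCYE-to-LCYB ratios of FPKM of 1.15, 0.846 and 1.37 in DGP1-OE1 replicates 1 to 3 and of 4.06, 2.91 and 2.17 in ZH11 replicates 1 to 3. Every ZH11 library thus held more LCYE than LCYB by a factor over 2, and the DGP1-OE1 libraries lay on both sides of equality. The share of LCYE in the summed cyclase FPKM was 52.4% ± 6.06 (SD, n = 3) in DGP1-OE1 and 74.4% ± 5.89 (SD, n = 3) in ZH11. Summed cyclase FPKM was 38.7 ± 6.65 in DGP1-OE1 and 69.3 ± 6.58 in ZH11. With 1 FPKM added to each gene, the log2 ratio of LCYB to LCYE was -0.132 ± 0.335 in DGP1-OE1 and -1.51 ± 0.436 in ZH11. This was a difference of 1.38 between groups that did not overlap. No p is given for it, since the choice of genes named this comparison, and 3 against 3 libraries cannot give an exact permutation p below 0.1.

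**Figure D3:**
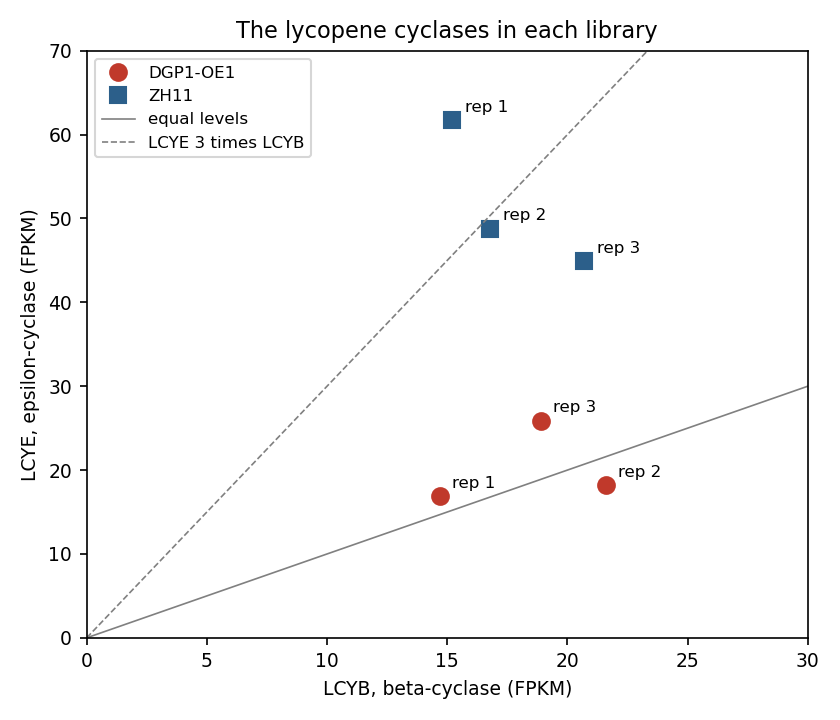
FPKM of the epsilon-cyclase LCYE (vertical) against the beta-cyclase LCYB (horizontal) in each of the 6 libraries, labelled by replicate, with lines for equal levels and for LCYE at 3 times LCYB. DGP1-OE1 libraries (circles) lie near the line of equal levels, and ZH11 libraries (squares) lie at LCYE-to-LCYB ratios of 2.17 to 4.06.

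The entry step showed an unequal pair. PSY1 (Os06g0729000, chromosome 6), a phytoene synthase of green tissue, had 73, 62.9 and 79.2 FPKM in DGP1-OE1 replicates 1 to 3 and 114, 106 and 119 FPKM in ZH11 replicates 1 to 3. All DGP1-OE1 values lay below all ZH11 values. Its mean was 0.635 times the wild-type mean, with a log2 difference of -0.65 (SE 0.184, 95% interval -1.06 to -0.247), and it was not called (limma adjusted p = 0.278, unadjusted p = 0.00462). PSY2 (Os12g0626400, chromosome 12), the other leaf phytoene synthase, had 121, 171 and 134 FPKM in DGP1-OE1 and 132, 122 and 121 FPKM in ZH11. Its groups overlapped through DGP1-OE1 replicate 1, and DGP1-OE1 replicate 2 stood far above the others. The log2 difference was 0.16 (SE 0.194, limma adjusted p = 0.886), and it was 0.272 without DGP1-OE1 replicate 1 and 0.022 without DGP1-OE1 replicate 2.

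PSY1 made up 37.7%, 26.9% and 37.2% of the summed PSY1 and PSY2 FPKM in DGP1-OE1 replicates 1 to 3 and 46.3%, 46.5% and 49.5% in ZH11 replicates 1 to 3. Both together gave 213 ± 20.1 FPKM (SD, n = 3) in DGP1-OE1 and 238 ± 8.49 FPKM (SD, n = 3) in ZH11, with overlapping groups. The log2 ratio of PSY1 to PSY2, again with 1 FPKM added to each, was -0.964 ± 0.401 in DGP1-OE1 and -0.148 ± 0.104 in ZH11, without overlap. As with the cyclases, the ratio of 2 enzymes that share a substrate separated the genotypes, as 1 gene of each pair, PSY1 or LCYE, did alone. The other gene of each pair had overlapping groups, so the ratios are not separate results.

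From phytoene to lycopene the 3 genes had positive differences whose 95% intervals included 0. PDS (Os03g0184000, chromosome 3), which makes the first desaturations of phytoene, had 84.5, 92.9 and 67.4 FPKM in DGP1-OE1 replicates 1 to 3 and 63.3, 77.6 and 62 FPKM in ZH11 replicates 1 to 3. ZDS (Os07g0204900, chromosome 7), which desaturates zeta-carotene, had 81.3, 122 and 86.2 FPKM in DGP1-OE1 and 58.7, 92.1 and 73.8 FPKM in ZH11. CRTISO (Os11g0572700, chromosome 11), which turns poly-cis lycopene into the all-trans form, had 28.7, 36.2 and 20 FPKM in DGP1-OE1 and 18.3, 21.8 and 16.9 FPKM in ZH11. For PDS and CRTISO the groups overlapped through 1 pair of libraries, the lowest of DGP1-OE1 (replicate 3) and the highest of ZH11 (replicate 2). Without DGP1-OE1 replicate 3 the log2 differences were 0.392 for PDS and 0.739 for CRTISO, and neither was called (limma adjusted p = 0.654 and 0.373). Without ZH11 replicate 2 they were 0.363 and 0.615, and again neither was called (limma adjusted p = 0.609 and 0.477).

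The log2 differences were 0.26 for PDS (SE 0.202), 0.36 for ZDS (SE 0.233) and 0.52 for CRTISO (SE 0.255), with limma adjusted p of 0.787, 0.727 and 0.608. Intervals ran to 0.706, 0.874 and 1.08 at their upper ends and to -0.182, -0.151 and -0.043 at their lower ends. Replicate 2 was the highest library of its genotype for each of the 3 genes, in DGP1-OE1 and in ZH11 alike. Across all tested rows the deviations of the libraries numbered 2 from their group means correlated at r = 0.375 (18270 rows, which are not independent replicates). For the libraries numbered 1 and 3 r was 0.016 and 0.137, and unequal numbers gave -0.279 to 0.206. The labels do not pair equal numbers, and an effect shared by the libraries numbered 2 was not tested. Without DGP1-OE1 replicate 2 the log2 differences were 0.163 for PDS, 0.184 for ZDS and 0.325 for CRTISO, and over all single libraries left out they ran from 0.163 to 0.392, from 0.184 to 0.521 and from 0.325 to 0.739. A replicate block cannot change these differences, since each number occurs once per genotype, and with it the limma adjusted p were 0.606, 0.428 and 0.328. Rice mutants in each of the 3 genes are known to be photobleached and to sprout before harvest.

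**Figure D4:**
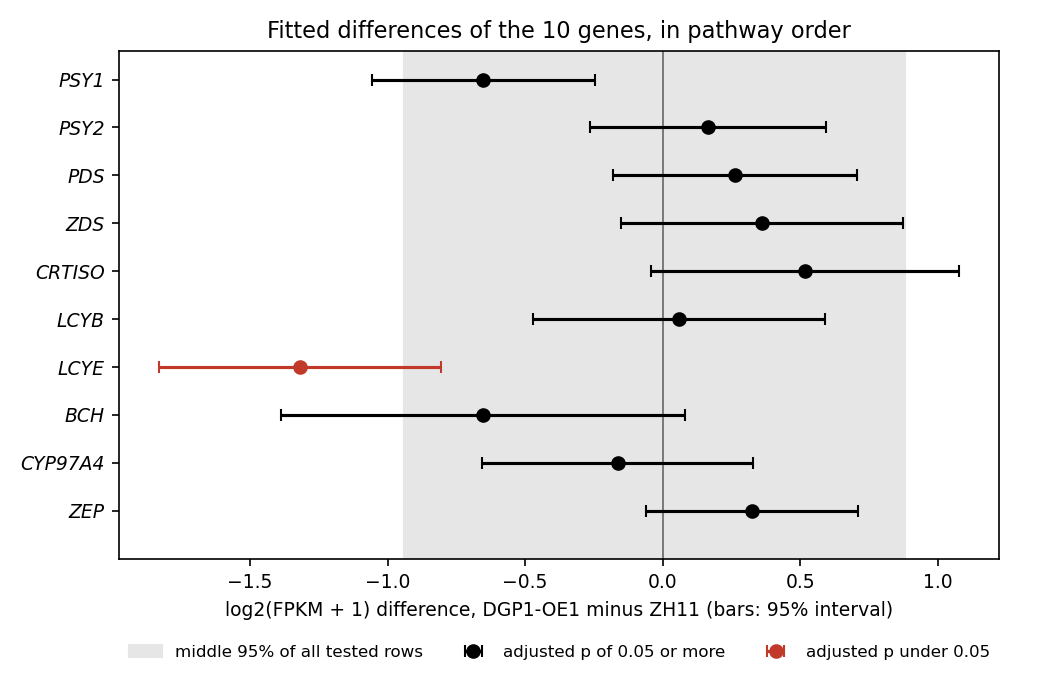
Fitted log2(FPKM + 1) differences, DGP1-OE1 minus ZH11, with 95% intervals for the 10 genes in pathway order, and in grey the range from -0.94 to 0.88 that holds the middle 95% of all 18270 tested rows. LCYE lies outside that range at -1.32 and the other 9 genes lie inside it.

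Beyond the cyclases, the hydroxylase BCH and the epoxidase ZEP, which act one after the other on the beta branch, lay on opposite sides of the wild type. BCH (Os03g0125100, chromosome 3), which hydroxylates beta-carotene to zeaxanthin, was the least abundant of the 10 genes in both genotypes. It stood at 1.88, 2.05 and 2.02 FPKM in DGP1-OE1 replicates 1 to 3 and at 3.16, 4.98 and 3.16 FPKM in ZH11 replicates 1 to 3. The groups did not overlap, and the mean in DGP1-OE1 was 0.527 times that in ZH11. The log2 difference of -0.65 (SE 0.333, 95% interval -1.39 to 0.08, limma adjusted p = 0.622) understates the fold, since 1 FPKM was added to values this low. With a pseudocount of 0.1 it was -0.86 (adjusted p = 0.645).

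ZEP (Os04g0448900, chromosome 4) converts zeaxanthin to violaxanthin and is needed for abscisic acid in rice. It had 136, 146 and 142 FPKM in DGP1-OE1 replicates 1 to 3 and 105, 121 and 111 FPKM in ZH11 replicates 1 to 3. Every DGP1-OE1 value lay above every ZH11 value, and the mean was 1.25 times the wild-type mean. The log2 difference was 0.325 (SE 0.176, 95% interval -0.062 to 0.711, limma adjusted p = 0.65). The ratio of ZEP to BCH was 71.2 ± 1.02 (SD, n = 3) in DGP1-OE1 and 31 ± 5.8 (SD, n = 3) in ZH11. Its groups could not overlap, since every ZEP value was higher and every BCH value lower in DGP1-OE1. The spread of this ratio in DGP1-OE1 was narrow, from 70.3 to 72.3.

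CYP97A4 (Os02g0817900, chromosome 2) is a cytochrome P450 that hydroxylates beta rings, chiefly that of alpha-carotene on the way to lutein, and so acts downstream of LCYE. It had 37.2, 44.5 and 40.6 FPKM in DGP1-OE1 replicates 1 to 3 and 40.1, 39 and 60.8 FPKM in ZH11 replicates 1 to 3. The groups overlapped, and ZH11 replicate 3 stood apart from the other 5 libraries. The log2 difference was -0.16 (SE 0.224, 95% interval -0.657 to 0.329, limma adjusted p = 0.904), and it was 0.04 without ZH11 replicate 3. That interval includes 0 and lies wholly above the LCYE difference of -1.32.

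When the genes after lycopene were put together by branch, the mean log2(FPKM + 1) of LCYB, BCH and ZEP minus that of LCYE and CYP97A4 was -0.513, -0.453 and -0.707 in DGP1-OE1 replicates 1 to 3 and -1.4, -0.924 and -1.3 in ZH11 replicates 1 to 3. The groups did not overlap, and the difference of their means was 0.651. This score mostly restates the lower LCYE, whose log2 difference was -1.32, and does not show a rise of the beta branch. There the differences were 0.058 for LCYB, -0.654 for BCH and 0.325 for ZEP. Within each branch the members' values differed in how their groups lay. On the beta branch ZEP was higher without overlap, BCH lower without overlap and LCYB overlapping. On the epsilon branch LCYE was lower without overlap and CYP97A4 overlapping. The 95% intervals of ZEP and BCH both included 0, and 13.9% of all tested rows had non-overlapping groups, so opposite changes of ZEP and BCH are not shown. CYP97A4 also acts on beta-carotene, so its place on the epsilon branch is a choice.

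By level, the pathway was arranged alike in both genotypes except around PSY1 and LCYE. PSY2 had the highest mean in both, 142 FPKM in DGP1-OE1 and 125 FPKM in ZH11. In DGP1-OE1 the order of means went on with ZEP, ZDS, PDS, PSY1, CYP97A4, CRTISO, LCYE, LCYB and BCH, and neighbours had overlapping libraries at PSY2 and ZEP, at ZDS, PDS and PSY1, and at CRTISO, LCYE and LCYB. In ZH11 it went on with PSY1, ZEP, ZDS, PDS, LCYE, CYP97A4, CRTISO, LCYB and BCH, and the neighbours with overlapping libraries were PSY1 and ZEP, ZDS and PDS, LCYE and CYP97A4, and CRTISO and LCYB. LCYE thus stood with CYP97A4 and above CRTISO in ZH11, and with CRTISO and LCYB in DGP1-OE1. The highest mean exceeded the lowest by 71.4 times in DGP1-OE1 and by 33.2 times in ZH11. In ZH11, PSY1, PSY2 and ZEP each lay above at least 95.4% of all tested rows and BCH above 27.2%.

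The genes lie on 8 chromosomes by the first digits of their IDs, with 2 genes each on chromosomes 2 and 3. Replicate spread differed between them. The coefficient of variation of FPKM was lowest for ZEP in DGP1-OE1, at 3.55%, and for PSY2 in ZH11, at 4.75%. It was highest for CRTISO in DGP1-OE1, at 28.8%, and for BCH in ZH11, at 27.9%. For BCH it was 4.74% in DGP1-OE1.

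Within genotypes the members were about as alike as any pair of genes. After each genotype's mean was removed, the median Pearson r of log2(FPKM + 1) over the 6 libraries was 0.102 for the 45 pairs of members and 0.089 for all pairs of tested rows. This is a description, since the 6 libraries share their depth and composition effects across all genes. PDS and CRTISO lay closest together (r = 0.961), and PSY1 and CRTISO farthest apart (r = -0.965). LCYB was most like CYP97A4 among the members (r = 0.808, with 2.58% of tested rows more like it), and LCYE was most like PSY1 (r = 0.439, with 13.8% of tested rows more like it).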

How the data were processed

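RNA from rice leaves was sequenced in 3 DGP1-OE1 and 3 ZH11 libraries. The authors deposited FPKM for 19696 rows, 18804 of them with a rice locus ID. HISAT2 2.0, StringTie 1.3.0 and Bowtie 0.12.2 are named without roles, per the submitters' processing notes, which also name mm8, a mouse build that does not go with rice IDs. Which rice genome and gene models were used is not stated in the sources at hand. Overexpressor columns, named DGP1-OE with a number, were matched to DGP1-OE1 by that number.

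The members and lists were chosen with earlier results of these data known. Gene names come from the list that chose the members. Of all IDs, 0 matched the RefSeq gene table, so other pathway genes are not named and no sequence is shown. Rows with FPKM of at least 1 in at least 3 libraries were fitted on log2(FPKM + 1) with limma 3.58.1 (R 4.3.3), empirical Bayes moderation and an intensity trend, as DGP1-OE1 minus ZH11, and p-values were adjusted over all 18270 rows (Benjamini-Hochberg, threshold 0.05). The script was tested on simulated data. Differences on this scale understate changes of low genes. FPKM depends on transcript models and on the other genes of a library, and the depth is unknown: among rows under 0.5 FPKM, at most 4.94% shared 1 ratio between a pair of libraries within 0.02 log2 units. Ratios of genes were computed per library and not tested. Log2 ratios were differences of log2(FPKM + 1), while FPKM ratios had nothing added. The other settings were 2 filters, 3 scalings, another pseudocount, 2 moderations, the replicate number as a block, and each library left out. All 10 members are named by rule.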

Additional observations from a re-analysis of the deposited data

How the results depend on the processing

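The LCYE difference kept its direction in all 15 other settings and its call in 6 of them. Most settings could not change that direction. Its groups do not overlap, so leaving out 1 library cannot reverse it, and filter, moderation and block leave the difference unchanged. Lost calls took the number of carotenoid genes called lower to 0 (1 as reported) with a pseudocount of 0.1, median-of-ratios scaling, quantile normalization and no intensity trend, and to between 0 and 1 with each library left out. No carotenoid gene was called higher in any setting. Over the whole table, 29 higher and 36 lower genes became 130 and 139 in the fit with a replicate block, lower genes became 14 when no intensity trend was fitted and 21 with a pseudocount of 0.1, and leaving out each library gave 16 to 39 higher and 9 to 42 lower genes. The labels do not pair equal numbers, whose libraries' deviations correlated at 0.016, 0.375 and 0.137 for replicates 1, 2 and 3. Libraries of unequal numbers correlated at -0.279 to 0.206. The block changed no call of a carotenoid gene. The LCYB difference ran from -0.06 to 0.203 with 1 library left out and changed sign without DGP1-OE1 replicate 2 (-0.06) and without ZH11 replicate 1 (-0.034). The CYP97A4 difference ran from -0.276 to 0.039 and changed sign without ZH11 replicate 3. The other 8 genes kept their sign throughout. For PSY1, LCYE, BCH and ZEP the non-overlapping groups fixed this when 1 library was left out. With 1 library left out PSY2 ran from 0.022 to 0.272, PDS from 0.163 to 0.392, ZDS from 0.184 to 0.521 and CRTISO from 0.325 to 0.739, each lowest without DGP1-OE1 replicate 2. The difference of the LCYB-to-LCYE log2 ratio ran from 1.15 to 1.59, that of the branches from 0.555 to 0.792 and that of PSY1 to PSY2 from -0.94 to -0.584. Fewer libraries lower the power of a fit by construction. The whole-table counts of higher and lower genes rose without DGP1-OE1 replicate 2 (35 and 42) and without ZH11 replicate 2 (39 and 41). The cause of all these changes was not tested. BCH did not pass the filter at 5 FPKM and has no value there. With depth unknown, no counting error can be given.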
